A study of Homo sapiens with 8 samples.

Results

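CD44 encodes the main cell-surface receptor for hyaluronan, a long sugar polymer of the extracellular matrix, and its protein links the matrix to the cytoskeleton in adhesion, migration and tumor growth. The CD44 mRNA is alternatively spliced in its middle, where variable exons are included or skipped, while its full-length mRNAs end in the same long 3’UTR. IGF2BP1 is an oncofoetal RNA binding protein that contacts target mRNAs through its RNA recognition motifs and KH domains, mostly in 3’UTRs, and is known for keeping bound mRNAs stable. CD44 is among its described targets.

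All peaks on the plus strand of chromosome 11 within CD44 (ENSG00000026508, GRCh38 positions 35138882 to 35232402 in GENCODE release 44) were taken from the deposited eCLIP peak lists. CD44 held 14 of the 22311 peaks listed for DMSO and 26 of the 22123 listed for AVJ16. In eCLIP, UV light ties RNA to the proteins it touches, an antibody pulls down the protein of interest (IP), and the RNA recovered is sequenced and set against a library from the same gel size range without pull-down (SMInput). H1299, a human non-small cell lung carcinoma line labelled as wild type, received 1.5 µM AVJ16, a small molecule inhibitor of IGF2BP1, or 0.01% DMSO for 24 h, and was then irradiated at 254 nm with 400 mJ/cm2. Each treatment had 2 IP and 2 SMInput libraries, 8 in all, made from one thaw of this cell line in batches that the labels do not tie to libraries. The labels also do not say whether the AVJ16 cells received DMSO. Each list combines both IP replicates of a treatment and was normalized to its own inputs. It gives 2 values per peak, the log2 fold enrichment of IP over SMInput and a −log10 p, and holds only peaks whose log2 value is 3 or more, which is 8-fold. The lists carry no column names. The enrichment is read as log2 because the study's own table of these peaks names it so, and its results define a significant peak by a log2 fold enrichment above 3. Its methods state the threshold as a fold enrichment with no log. On a linear scale, the differences below would be differences in fold. Neither replicate values nor reads per peak are given, which leaves the depth unknown, the values below without an error between replicates, and the treatments without a test. For the same reason, a change in IP reads and a change in SMInput reads at a peak cannot be told apart.

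All 40 CD44 peaks lay in the 3’UTR, and neither list held a peak in the coding exons, constant or variable, in the introns or in the 5’UTR of CD44. The full-length 3’UTR runs for 3069 nt after the stop codon, from 35229334 to 35232402, and no other annotated gene overlaps it on either strand. Positions below count from 1 at the first base after the stop codon. When peaks that touch or overlap in either list were joined, 12 sites remained, numbered from the 5’ end. They began at position 438 and ended at position 2776, which left the first 437 nt and the last 293 nt of the 3’UTR without a peak. Gaps between neighbouring sites ranged from 2 to 252 nt, with a median of 93 nt.

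Of the 12 sites, 10 were present in both lists, sites 3 and 5 were present in the AVJ16 list only, and none was particular to the DMSO list. The bases at the middle of the most enriched AVJ16 peak of 6 sites are shown as RNA, at most 30 nt each, with the triplet CAU and the letters GGAC in capitals. CAU is a core of described IGF2BP1 binding elements, and GGAC lies within the consensus at which m6A is written. Sites 9 and 11 are shown for their enrichment, site 10 for its difference between the lists, sites 3 and 5 because only the AVJ16 list holds them, and site 12 because it was nearly equal in both lists.
Site 3 (chr11:35230261-35230290, plus strand): guccuggaaucagaguuggaagcugaggag
Site 5 (chr11:35230592-35230621, plus strand): auuuaggaugaguuaagugccuggggaguc
Site 9 (chr11:35231192-35231221, plus strand): ugaaagaaacuGGACAUuaggccacuaugu
Site 10 (chr11:35231584-35231613, plus strand): uucuauuccuuggcCAUugucaacggagag
Site 11 (chr11:35231690-35231719, plus strand): caagggcguaacucuggaagcacagcuuga
Site 12 (chr11:35232054-35232083, plus strand): acuguuauaucagaggaguaggagagagga

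**Figure D1:**
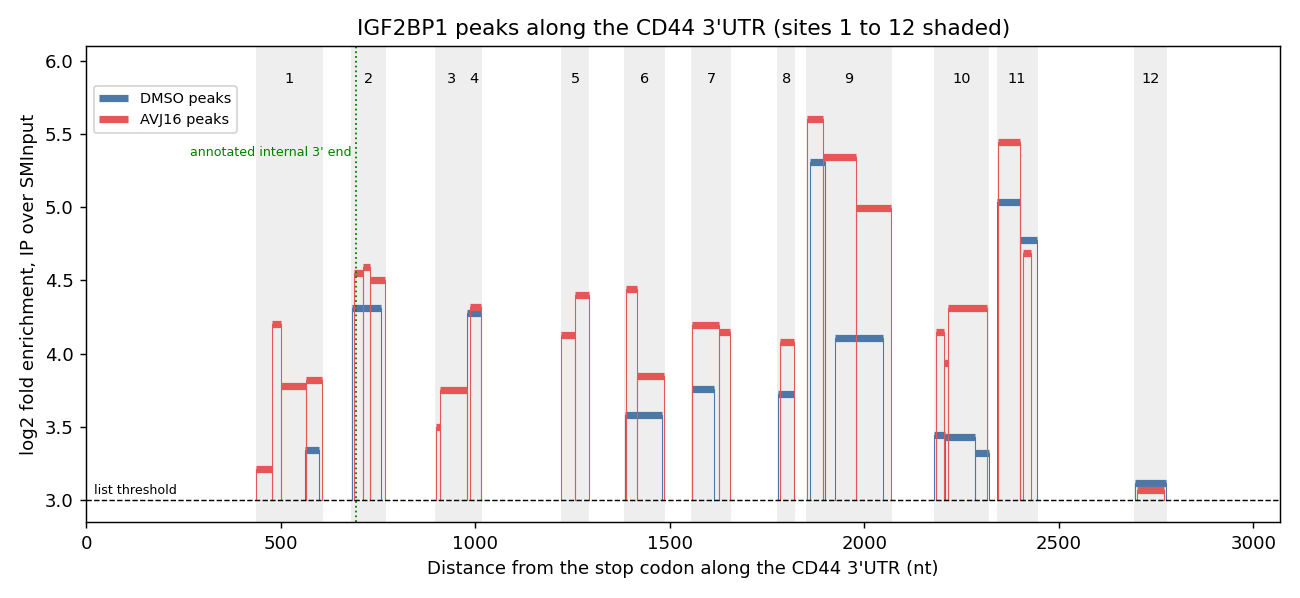
Log2 fold enrichment of IP over SMInput (y axis) against distance from the stop codon in nt (x axis) for every CD44 peak, each bar spanning its peak, DMSO in blue and AVJ16 in red. Grey bands are sites 1 to 12, the dashed line is the threshold of the lists and the dotted line the annotated internal 3’ end at position 694. Sites 9 and 11 stand highest in both lists, and sites 3 and 5 hold red bars only.

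With DMSO, the log2 fold enrichment of the 14 peaks ranged from 3.12 to 5.31 with a median of 3.74, close to the median of 3.71 over the 16644 DMSO peaks in all 3’UTRs. Site 9 held the most enriched DMSO peak, from position 1860 to 1898 (chr11:35231193-35231231), at 5.31. The peaks of site 11, from 2343 to 2401 and from 2402 to 2443, had 5.04 and 4.78. These were the strongest contacts of IGF2BP1 with CD44 by this measure, and 2 of the 14 peaks (against 5.19% of all 3’UTR DMSO peaks) reached 5. At the other end, site 12 had 3.12, site 1 had 3.35, and the 3 peaks of site 10 had 3.44, 3.43 and 3.32. These 5 CD44 peaks lay under 3.5, where 36.2% of all 3’UTR DMSO peaks were found.

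With AVJ16, the 26 peaks ranged from 3.07 to 5.60 with a median of 4.20, while the median over the 16585 AVJ16 peaks in all 3’UTRs was 3.67. A log2 value of 4 or more was reached by 18 of the 26 peaks, compared with 6 of the 14 DMSO peaks, and by 30.7% of all AVJ16 and 33.3% of all DMSO peaks in 3’UTRs. Sites 9 and 11 were again the most enriched. Site 9 had AVJ16 peaks of 5.60, 5.34 and 4.99, in order along the mRNA, and site 11 had 5.44 and 4.69. Site 12 was again the weakest, at 3.07.

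The larger number of AVJ16 peaks came in part from finer division of the same stretches. When touching peaks were joined within each list, 11 DMSO and 13 AVJ16 clusters were left. At site 2, for example, a DMSO peak from 684 to 758 faced 3 AVJ16 peaks that touch each other. Measured by length, DMSO peaks covered 822 nt of the 3’UTR (26.8%) and AVJ16 peaks 1146 nt (37.3%). Both lists covered 755 nt, which is 91.8% of the DMSO length and 65.9% of the AVJ16 length. The 391 nt under AVJ16 peaks only lay at sites 3 and 5 and at extensions of other sites, and 67 nt lay under DMSO peaks only. In the number of 3’UTR peaks, CD44 had 12 more in the AVJ16 list, and 10 of the 4806 genes with a 3’UTR peak in either list had a larger surplus. Over all genes, the AVJ16 list held 59 fewer 3’UTR peaks than the DMSO list.

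All 14 DMSO peaks overlapped an AVJ16 peak by at least 1 nt (95% Wilson interval 78.5% to 100%, for counting error only), against 70.5% of all 3’UTR DMSO peaks. The median −log10 p was 23.6 for the CD44 DMSO peaks and 13.6 for all 3’UTR DMSO peaks. The 70.5% was not matched for this. Conversely, 19 of the 26 AVJ16 peaks overlapped a DMSO peak (73.1%, interval 53.9% to 86.3%), against 75.2% of all 3’UTR AVJ16 peaks. The 7 AVJ16 peaks without a DMSO peak lay at sites 1 (2 peaks), 3 (2), 5 (2) and 7 (1). Their log2 fold enrichment ranged from 3.22 to 4.40, with a median of 4.13, and the 19 overlapping AVJ16 peaks had a median of 4.32.

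For each DMSO peak, the AVJ16 peak sharing the most bases with it was taken as its partner, and the DMSO log2 fold enrichment was subtracted from the partner's. The partner was higher at 12 of the 14 peaks, where 44.4% of shared DMSO peaks in all 3’UTRs had a higher partner. The median difference at CD44 was 0.38 (95% interval from order statistics 0.04 to 0.88, over peaks of one mRNA, which are not replicates), against −0.07 over the 11737 shared 3’UTR peaks of all genes. Beyond the study's limit of 0.5, 4 CD44 peaks (28.6%) were higher, compared with 13.0% of shared 3’UTR peaks, and 0 were lower, compared with 21.3%. The study set this limit on clusters that had first passed its replicate-based test of treatment, using read counts. Here the limit stands alone, so these peaks are not called differentially bound. The 14 values ranged from −0.09 to 0.99. Over all shared 3’UTR peaks, 90% of the differences lay between −1.04 and 0.85.

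The largest differences lay side by side, at sites 9 and 10. At site 10, a stretch of 139 nt (chr11:35231514-35231652), the DMSO values 3.44, 3.43 and 3.32 stood against partners of 4.15, 4.31 and 4.31. The differences were thus 0.70, 0.88 and 0.99, although the last 2 DMSO peaks share a partner. At site 9, the weaker DMSO peak from 1926 to 2047 had 4.11 and its partner 4.99, a difference of 0.88, and part of the same DMSO peak lay under a further AVJ16 peak of 5.34. The strongest DMSO peak of site 9 had 5.31 and its partner 5.60, a difference of 0.30. Base by base over the stretches that both lists cover, the mean difference was 0.85 at site 9 (161 nt) and 0.85 at site 10 (132 nt).

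Upstream of these, the shared sites differed by less. Site 1 had 3.35 with DMSO and 3.82 with AVJ16, a difference of 0.47. At site 2 the values were 4.31 and 4.5, a difference of 0.19. Site 4 was nearly equal, with 4.28 and 4.32. At sites 6, 7 and 8 the DMSO values of 3.58, 3.76 and 3.73 stood against 3.85, 4.20 and 4.08, which gave 0.27, 0.44 and 0.36. Part of the site 6 DMSO peak lay under a further AVJ16 peak of 4.44. Base by base, the mean difference at site 6 was 0.44 (91 nt).

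Towards the 3’ end, the difference became smaller. The first peak of site 11 had 5.04 and its partner 5.44, a difference of 0.41, whereas its second peak had 4.78 with DMSO and 4.69 with AVJ16. Site 12, the last on the mRNA, had 3.12 and 3.07. These were the only CD44 pairs with a lower AVJ16 value, by 0.09 and 0.05 in size. Of the 755 nt covered in both lists, 666 nt (88.2%) had the higher value with AVJ16 and the median difference per nt was 0.41.

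**Figure D2:**
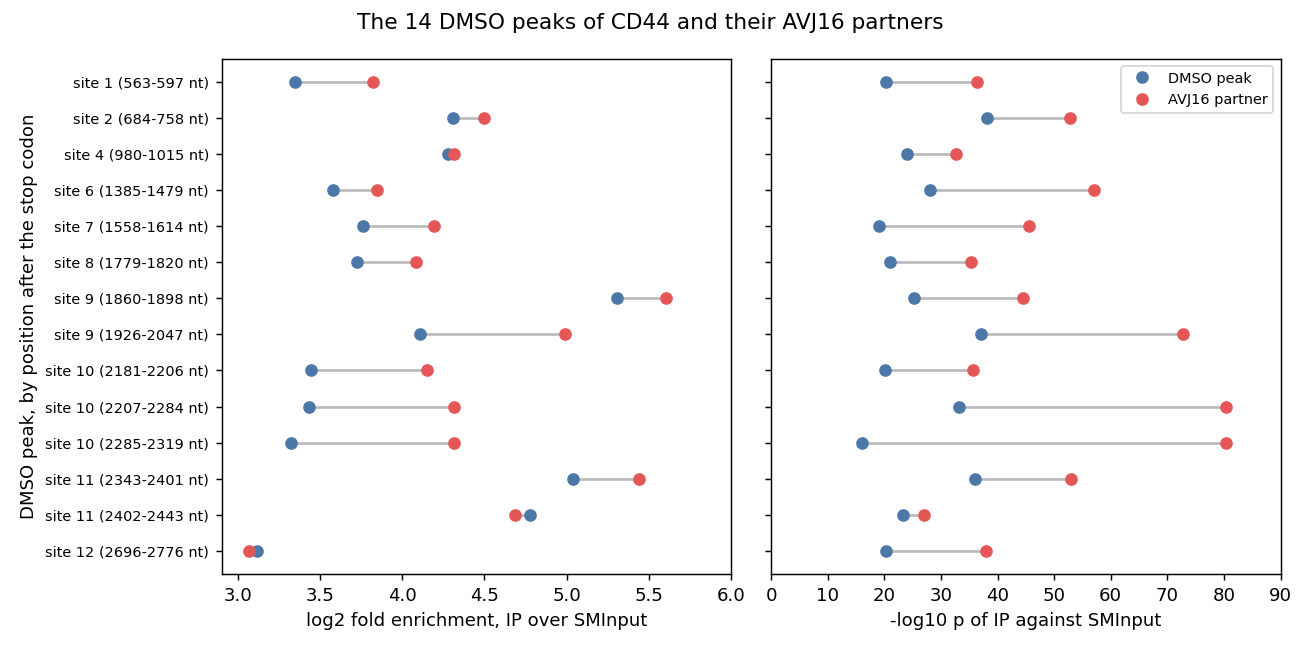
Log2 fold enrichment (left) and −log10 p (right) of the 14 CD44 DMSO peaks (blue) and their AVJ16 partners (red), ordered by position after the stop codon. The red point lies to the right at 12 of 14 peaks on the left panel and at all 14 on the right panel; site 11 (second peak) and site 12 are the exceptions on the left.

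The 2 sites that only the AVJ16 list holds were not at the edge of its threshold. Site 3, from position 899 to 977, had peaks of 3.499 and 3.75, with −log10 p values of 33.5 and 60.1. It ends 2 nt before site 4, which both lists hold. Site 5, from 1222 to 1291, had peaks of 4.13 and 4.40, and its −log10 p values were 34.3 and 36.1. The distance from site 5 to its nearest neighbour is 93 nt, so it stands apart from the DMSO peaks. A site under either threshold is missing from a list whatever its level, so no difference can be given for sites 3 and 5.

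The authors' −log10 p, which for a given enrichment grows with the number of reads, was higher with AVJ16 at all 14 pairs. The increase ranged from 3.63 to 64.2 with a median of 17.3, and 44.9% of the shared 3’UTR peaks of all genes had a higher value. Partners can differ in length from their DMSO peaks, which also changes the reads they hold. The 64.2 set a DMSO peak of 35 nt against an AVJ16 peak of 100 nt that another DMSO peak shares. At site 10 the −log10 p values of the DMSO peaks were 20.1, 33.1 and 16.1, and those of the partners 35.7, 80.3 and 80.3. At site 12, where the enrichment was nearly equal, it was 20.3 with DMSO and 37.9 with AVJ16. Over all 3’UTR peaks the median −log10 p was 13.6 in both lists. Whether more CD44 reads in the AVJ16 libraries had a part in the results at CD44 was not tested.

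Because both lists stop at the same threshold, a weak DMSO peak cannot have a much weaker partner, and the difference depends on the DMSO enrichment. The CD44 pairs were therefore read within ranges of the DMSO value. From 3 to 3.5, the 5 CD44 differences had a median of 0.70, while that of 3207 shared 3’UTR peaks was 0.19. From 3.5 to 4, the 3 CD44 peaks had 0.36 and the 3’UTR peaks −0.05. From 4 to 4.5, the medians were 0.19 for 3 CD44 peaks and −0.27 for the 3’UTR peaks. At 4.5 and above, the 3 CD44 peaks had a median of 0.30, whereas the 3’UTR peaks had −0.50. In these 4 ranges, CD44 peaks above the median of the 3’UTR peaks numbered 4 of 5, 3 of 3, 3 of 3 and 3 of 3. The one exception was site 12.

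**Figure D3:**
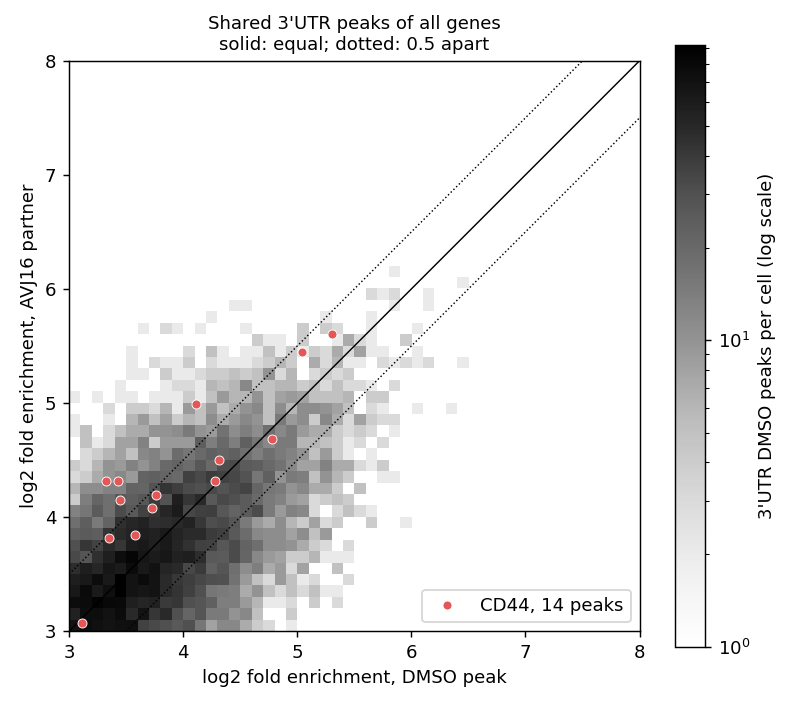
AVJ16 (y axis) against DMSO (x axis) log2 fold enrichment at the 11737 shared 3’UTR peaks of all genes, as counts per cell of 0.1 on a log grey scale, with the 14 CD44 peaks in red. The solid line marks equal values and the dotted lines a difference of 0.5; 12 CD44 peaks lie above the solid line and 4 above the upper dotted line.

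Among the 799 genes with at least 5 shared 3’UTR peaks, the median difference per gene ranged from −1.27 to 0.98, and CD44 ranked 36th from the top. A median above 0.5 was reached by 1.63% of these genes, not including CD44, and 1.50% had a higher partner at every shared peak, which CD44 did not. Of the 240 genes with at least 10 shared peaks, it ranked 5th. The 4 above it, named after their values were seen, were STC2 with 0.50, SLC39A9 with 0.48, GJA1 with 0.46 and ERLIN2 with 0.38. STC2 encodes a secreted glycoprotein hormone, SLC39A9 a zinc transporter, GJA1 the gap junction protein connexin 43 and ERLIN2 a protein of the endoplasmic reticulum. In the larger set, the median nearest to that of CD44 was that of ERLIN2 over 11 peaks, followed by ASPH over 7 peaks and B4GALT1 over 5 peaks, both also 0.38. Each of these had a peak that was lower with AVJ16 by more than any at CD44, down to −0.35 in ERLIN2, −0.59 in ASPH and −1.43 in B4GALT1. These ranks order the lists and carry no error.

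**Figure D4:**
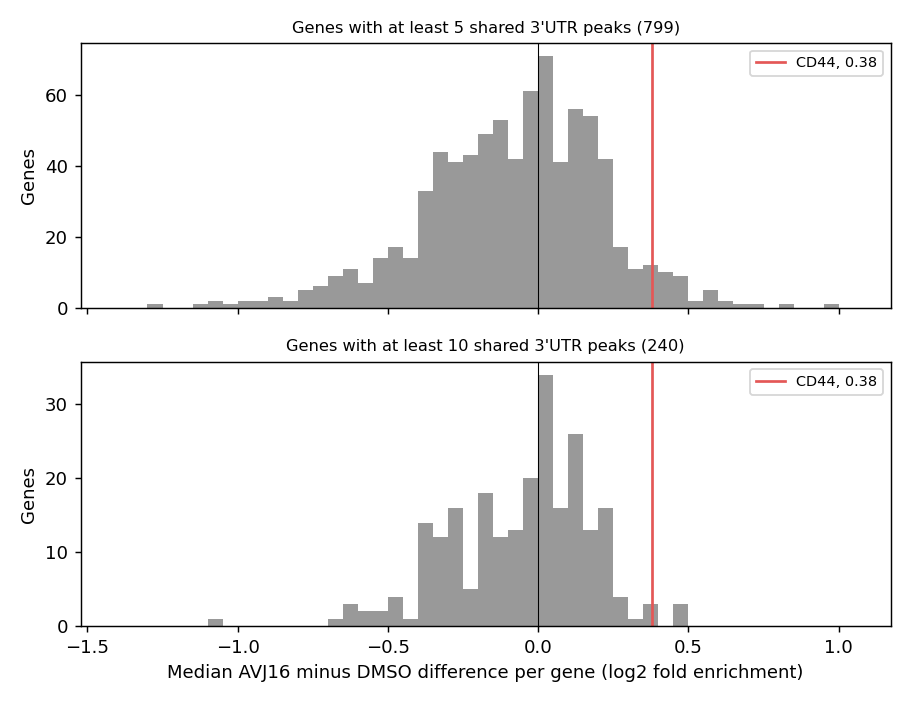
Number of genes (y axis) by the median change in log2 fold enrichment, AVJ16 minus DMSO, over shared 3’UTR peaks (x axis), for 799 genes with at least 5 such peaks (top) and 240 with at least 10 (bottom). The red line is CD44 at 0.38, above most genes in both panels.

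Other mRNAs that the study names as targets of IGF2BP1 had other values. HMGA2, which encodes a chromatin protein, had 33 DMSO and 37 AVJ16 peaks in its 3’UTR, and its 31 shared peaks had a median difference of −0.01 (range −1.05 to 1.21). LIN28B, whose protein blocks let-7 processing, had 10 and 5 peaks, and its 7 shared peaks ranged from −1.39 to −0.04 with a median of −0.38. MYC, the transcription factor gene, had 4 and 1 peaks in its 3’UTR and a shared peak with a difference of 0.12. Whether these genes differ from CD44 beyond replicate error could not be tested.

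The sites were also set against the annotated ends of CD44 mRNAs. Both annotated full-length transcripts carry all 12 sites, while the longest transcript with an earlier end in the same exon stops at position 694. Only site 1 lies wholly before this end, site 2 has 11 nt before it and 74 nt after it, and the other 10 sites lie after it. Of the bases after this end, 2375 in all, DMSO peaks covered 776 and AVJ16 peaks 971. Of the 694 bases before it, 46 and 175 were covered. The poly(A) signal AAUAAA occurs once in the whole 3’UTR, at positions 666 to 671, shortly before this internal end. The variant AUUAAA occurs 4 times, at positions 582, 2162, 3033 and 3047, the last 2 of these shortly before the full-length end. Both searches were added after the data were seen. AAUAAA lay in 1 DMSO and 1 AVJ16 peak of CD44 widened by 25 nt, and AUUAAA in 2 and 3. Among all peaks widened in this way, AAUAAA was present in 9.45% of all 3’UTR DMSO peaks and in 7.94% of AVJ16 peaks, and AUUAAA in 6.86% and 5.15%. How many CD44 mRNAs end at either place is not measured by the lists.

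In base composition, the 1213 nt under a peak of either list held 44.2% G and C, compared with 37.1% in the other 1856 nt of the 3’UTR. By peak, the median GC content was 42.5% for CD44 and 40.3% for all 3’UTRs with DMSO, and 45.4% and 42.0% with AVJ16. CAU, counted on the RNA strand, occurred 54 times in the 3’UTR. Of these occurrences 17 began under a peak, 1.40 per 100 nt, and 37 outside, 1.99 per 100 nt. In peaks widened by 25 nt on each side, CAU was present in 11 of 14 DMSO peaks (78.6%) and 20 of 26 AVJ16 peaks (76.9%) of CD44, against 89.9% and 88.8% of all 3’UTR peaks, whose lengths differ from those of CD44. Without widening, CAU was present in 8 of 14 DMSO peaks (57.1%) and 7 of 26 AVJ16 peaks (26.9%) of CD44, against 72.6% and 68.7% of all 3’UTR peaks. The number of CAU under CD44 peaks was 15 in each list. The AVJ16 peaks of CD44 were more numerous and shorter, with a median length of 37.5 nt against 49.5 nt with DMSO. The printed windows cover only the middle of a peak: that of site 11 holds no CAU, while the same AVJ16 peak holds one at positions 2395 to 2397.

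GGAC occurred 4 times in the CD44 3’UTR, and the only occurrences under peaks were both in site 9, the most enriched site, at positions 1870 to 1873 and 2006 to 2009. The first of these overlaps a CAU in the sequence printed above. GGAC was in 2 of 14 widened DMSO peaks (14.3%) and 3 of 26 widened AVJ16 peaks (11.5%) of CD44, a smaller share than the 23.1% of all widened 3’UTR peaks in each list. Among the sequences that the study lists from its motif search, which do not include GGAC, UCCAG occurred 2 times and CCNGUU 5 times in the CD44 3’UTR, N being any base. Within site 9, UCCAG lay under peaks of both lists at positions 2002 to 2006, where it shares a base with the second GGAC. It was in 1 widened CD44 peak of each list and in 16.1% of all widened 3’UTR DMSO peaks and 15.5% of AVJ16 peaks. CCNGUU overlapped the site 4 peaks of both lists at positions 987 to 992, and was in 1 DMSO and 2 AVJ16 widened peaks of CD44 and in 12.1% and 11.8% of all widened peaks. GNGGCCC lay under peaks at position 1951 in site 9 (1.84% and 2.15% of all), and UUUCCGAA and UCCUNNUGG were in no CD44 window (0.0421% and 0.0362%, and 1.32% and 1.35% of all). Site 9 thus held GGAC, UCCAG and GNGGCCC, which describes its letters and not a binding element.

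Genes that act with CD44 were read from a list of 33 genes grouped by role, of which 16 had a peak in at least 1 list, 14 of them in both. The share of all genes with a peak was not computed, so whether these counts are usual cannot be said. Together they had 94 DMSO and 120 AVJ16 peaks over all regions, while the whole lists held 22311 and 22123. Of their 72 shared DMSO peaks, 14 were higher (19.4%) and 17 lower (23.6%) by more than 0.5, against 12.6% and 20.1% of shared DMSO peaks of all genes and regions. The median difference was above 0 in 4 of the 13 genes with a shared peak. The share of all genes with a median above 0 is not given here, so this count is not read as a result. Over the 799 genes with at least 5 shared 3’UTR peaks, the middle value of the gene medians was −0.05. On the ligand side, none of the hyaluronan synthases HAS1, HAS2 and HAS3 had a peak. VCAN, which encodes the hyaluronan-binding proteoglycan versican, had 14 DMSO and 20 AVJ16 peaks, with a median difference of 0.24 over 9 shared peaks of all regions. In its 3’UTR alone, VCAN had 8 peaks in each list, and the median over 5 shared peaks had the other sign, at −0.33. HYAL2, a hyaluronidase, had a shared peak at 4.36 with DMSO and a difference of −1.34. HMMR, another hyaluronan receptor, had 4 and 6 peaks and a median of 0.07 over 4 shared peaks.

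Among the linkers to the cytoskeleton, MSN (moesin) had 10 and 11 peaks with a median difference of −0.06 over 10 shared peaks. RDX (radixin) had 2 and 7 peaks, and its 2 shared peaks differed by −0.06 and 0.58. EZR (ezrin) had none. NF2, which encodes merlin, had 4 and 2 peaks and 1 shared peak with a difference of 0.60. ADAM10, a sheddase of CD44, had 9 and 13 peaks, with a median of −0.09 over 9 shared peaks and a range from −0.74 to 0.84. Of the genes that regulate splicing, TRA2B and PCBP1 had median differences of −0.61 and −0.62 over 2 and 4 shared peaks, and KHDRBS1 had a shared peak with a difference of −0.03. Of the receptors that cooperate with CD44, MET had 17 peaks in each list and a median of −0.26 over 13 shared peaks, and EGFR had 13 and 22 peaks and a median of −0.02 over 9. SLC7A11, the cystine transporter that a CD44 variant stabilizes, had 10 and 9 peaks and a median of −0.03 over 7 shared peaks.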

How the data were processed

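The analysis used the deposited IGF2BP1 eCLIP peak lists, 1 for H1299 cells with DMSO and 1 for cells with AVJ16. The authors trimmed reads with cutadapt, discarded reads from repetitive elements, mapped with STAR (build hg38 per the labels), removed PCR duplicates, called peaks with CLIPper and compared IP with SMInput reads. Tool versions are not given in the sources used here. The log2 fold enrichment and the −log10 p of each peak were computed by the authors and deposited for both replicates combined, in a way not given in the sources used here. Normalization was separate for each list, the lists start at a log2 value of 3 and a −log10 p of 3, and −log10 p stops at 400. CD44 peaks were read with GENCODE release 44, later than the release that the study names, whose transcript matched the genome base for base over the 3’UTR. A peak overlapping several regions was assigned to the coding sequence first, then to the 3’UTR, the 5’UTR, noncoding exons and introns. Peaks were paired with bedtools 2.31.1 at an overlap of at least 1 nt. Figures were drawn with matplotlib 3.10.9, and values computed with pandas 2.3.3, scipy 1.17.1 and numpy 2.4.6 in Python 3.11.15, and region assignment and pairing were tested on simulated data. No test between treatments was made, since the lists hold no replicates. Depth is unknown, and intervals cover counting error only. The named genes are CD44, HMGA2, LIN28B and MYC, the 3 genes nearest to CD44 in median difference, and members of a fixed list of genes acting with CD44. CD44, the gene list and the alternatives were chosen with earlier results of these data known. Alternatives were stricter thresholds, other pairings, other limits, centring and other motif windows.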

Additional observations from a re-analysis of the deposited data

How the results depend on the processing

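The higher enrichment at CD44 with AVJ16 kept its direction under all 8 alternatives for the median difference, which ranged from 0.24 (log2 values of 4 or more in both lists, 6 peaks) to 0.44 (centred on the median of all shared peaks). All of them reuse the same peaks. A −log10 p of at least 5 could not change the result, since the lowest CD44 value was 16.1. Centring only moves every difference by the same amount. Counts moved more. With only log2 values of 4 or more, 6 DMSO peaks covering 373 nt remained and 6 peaks were shared, while joining touching peaks left 13 AVJ16 clusters. A limit of 0.25 gave 10 higher peaks and a limit of 1 gave 0. No share over all 3’UTR peaks is given for these limits or for sharing at log2 values of 4 or more. No peak was lower past the limit under any alternative run. In AVJ16 peaks that were not widened, the share with CAU was 26.9%, against 68.7% of all 3’UTR AVJ16 peaks. This share depends on how the list divides a stretch, since the number of CAU under CD44 peaks was 15 in each list. When pairing started from the AVJ16 peaks, 17 of 19 pairs were higher with AVJ16 and 6 passed 0.5. Of all 3’UTR pairs started in this way, 12.9% were higher and 21.5% lower by more than 0.5, with a median difference of −0.07. No paired analysis was possible because each list combines both replicates of a treatment, and for the same reason no replicate could be left out. The depth behind each peak is unknown from the lists.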

Other observations

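MicroRNA target letters were searched in the CD44 3’UTR as a further description, with microRNAs chosen after the peaks were seen because they are described as regulators of CD44 or, for let-7a, of other IGF2BP1 targets. The mature sequences are those of RefSeq (GRCh38.p14), with the seed (bases 2 to 8) in capitals, and 5 of 5 names were matched. miR-373-3p and miR-520c-3p share a seed.
hsa-miR-373-3p: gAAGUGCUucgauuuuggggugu
hsa-miR-520c-3p: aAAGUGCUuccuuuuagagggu
The match to this shared seed, AGCACUU, occurred once, at positions 3016 to 3022 (chr11:35232349-35232355), after the last site and under no peak of either list. It was present in 1.58% of all 3’UTR DMSO peaks widened by 25 nt and in 1.59% of AVJ16 peaks. Matches to the seeds of miR-34a-5p, miR-328-3p and let-7a-5p were not among the letters of this 3’UTR, and were present in 1.36%, 0.661% and 0.943% of all widened 3’UTR DMSO peaks. These counts describe exact seed matches and no other kind of site.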
